A study of Mus musculus with 8 samples.

Results

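The AP-2 genes Tfap2a, Tfap2b and Tfap2c were followed through 8 libraries of PyMT mammary tumor organoids, 5 sequenced in bulk and 3 as single cells. These 3 genes were chosen from the 5 genes of the AP-2 family for their measured levels in these same libraries, among them the contrast between SOX4KO and control organoids. They stand among 38293 gene identifiers counted in the bulk libraries and 15150 genes seen in the single-cell libraries. Because that contrast was used in the choice, their bulk and single-cell differences are given below as a description, without a test. The 2 other family genes, Tfap2d and Tfap2e, are reported beside them.

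All organoids came from tumors of MMTV-PyMT; MMTV-Cre; Ecadherin-mCFP mice, in which the mammary tumor virus promoter drives the polyoma middle T oncogene and Cre in mammary epithelium and E-cadherin carries a fluorescent tag. Control and SOX4KO lines therefore share these alleles. SOX4 was abrogated with CRISPR/Cas9, and whether the control lines had gone through the same steps is not given in the sources used here. WT1 and WT3 were the control lines in bulk, and H7, M4 and H4 the SOX4KO lines. GR17 was the control library of single cells, and GR18 and GR19 the SOX4KO libraries. All were grown for 4 days after splitting, with B27 and FGF2. The sources used here do not say whether the lines of a group came from separate tumors or clones, so p-values measure the spread between these lines only. The labels do not say which bulk line matches which single-cell library.

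AP-2 proteins bind DNA as dimers, with themselves or with each other, and recognise a GC-rich palindrome. In the mammary gland AP-2α, the product of Tfap2a, and AP-2γ, the product of Tfap2c, are expressed in the epithelium, and AP-2γ is known for its part in luminal and estrogen receptor-dependent gene expression. AP-2β, the product of Tfap2b, is best known from neural crest, kidney and limb development and has also been described in breast epithelium. AP-2δ and AP-2ε, from Tfap2d and Tfap2e, belong mainly to the nervous system. SOX4 is an HMG-box factor that binds a short AT-rich motif.

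Between 3050323 and 4678497 reads per bulk library fell on genes, and the single-cell libraries 7714119 to 8296953 UMIs (unique molecular identifiers, each standing for 1 captured transcript) in 362 to 369 cells with medians of 19845 to 21877 UMIs. Epithelial markers were present, with a UMI of Krt8 in 98.6% to 99.7% of cells and of Epcam in 95.7% to 98.4%. Immune, endothelial and adipocyte markers were at or near 0. In bulk, 6 of 10 immune, 5 of 8 endothelial and 3 of 5 adipocyte markers had no read in any line, and the summed levels were 1.79 to 14.4, 1.04 to 2.61 and 0 to 1.20 CPM (counts scaled to library size, in bulk after TMM normalization). In single cells, the immune markers summed to 2.72 CPM in GR17, 9.24 in GR18 and 7.96 in GR19, with 7, 6 and 7 of 10 at 0, and Ptprc, the pan-leukocyte marker, had 1, 1 and 0 UMIs. Endothelial markers summed to 4.28, 2.50 and 2.65 CPM. Fibroblast markers summed to 201 to 315 CPM in control lines and 130 to 142 CPM in SOX4KO lines, with 1 of 4 tested markers called lower in bulk, and in single cells to 7.23 to 12.1 CPM. Neural crest markers summed to 12.6 to 25.6 CPM in bulk, with 3 of 8 at 0 in every line. Sox4 itself gave 295 and 374 CPM in the control lines and 199, 179 and 299 CPM in H7, M4 and H4, so that H4 lay above WT1. In the single-cell libraries Sox4 was at 118 CPM in GR17, 82.5 in GR18 and 110 in GR19. The study describes its SOX4KO lines by bi-allelic indels, and for the lines it first selected it reports that SOX4 protein was absent on western blots. An indel can leave a transcript, so a count of RNA does not check the edit.

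The promoter of Tfap2b is shown first, since this gene had no read in the control lines. RefSeq entries of promoters (250 bases before to 50 after a start site, build GRCm38.p6) were at hand for Tfap2b (1 entry), Tfap2a (2), Tfap2d (3) and Tfap2e (1). The part before the start site of Tfap2b, at chr1:19211804-19212053 on the plus strand, reads:
Tfap2b promoter: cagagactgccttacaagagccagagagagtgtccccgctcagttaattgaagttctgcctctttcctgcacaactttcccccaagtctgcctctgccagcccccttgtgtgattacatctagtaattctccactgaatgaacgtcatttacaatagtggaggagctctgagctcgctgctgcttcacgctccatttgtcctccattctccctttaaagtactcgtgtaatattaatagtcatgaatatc
No base is in capitals because no searched motif matched. On both strands of the whole entry there were 0 matches to the AP-2 palindrome GCCNNNGGC and 0 to the SOX motifs ACAAAG and ACAATG, where 1 stretch of letters can match at most 1 of these SOX motifs. The files were made on NCBIM37/mm9, and no coordinate of theirs is used here. Among all 32851 promoters of this length, 16.6% held the AP-2 motif, 18.7% held ACAAAG, 12.6% held ACAATG and 28.6% held either SOX motif. The other family entries at hand had 0 matches as well. For Tfap2c no entry was at hand, so its promoter was not searched. This says only that these letters are not in these windows. GC content was 48.3% for the Tfap2b entry and 46.3% and 61.0% for those of Tfap2a, against a median of 52.7% over all promoters.

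In bulk, Tfap2b had reads in the SOX4KO lines and none in the control lines. WT1 and WT3 each had 0 reads, while H7 had 140, M4 94 and H4 148. Scaled to library size, the SOX4KO lines held 36.5, 33.8 and 35.4 CPM, a mean of 35.3 ± 1.36 (SD, n = 3). The groups did not overlap, and the SOX4KO lines lay within 1.08 times of each other, closer than their counting intervals (27.3 to 43.1 CPM over the 3 lines, exact Poisson, 95%). A count of 0 allows up to 0.777 CPM in WT1 and 0.598 CPM in WT3, taking 3 reads per library as the floor. Against a floor of 3 reads over the control group, Tfap2b was at least 104-fold higher in SOX4KO lines, a log2 bound of 6.71 that was 5.88 without WT1 and 5.51 without WT3. In those lines it stood between the 49.4th and 52.0th percentile of the genes tested, near the middle of the expressed genes.

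Tfap2b was chosen with this contrast known, so its place in the counts below is a description. Of 38293 identifiers, 21942 had no read in either control line. Of these, 2 had at least 20 reads in every SOX4KO line, a minimum set on the group where Tfap2b was high. They were Tfap2b and Rab6b, a Golgi-associated Rab GTPase with 66, 26 and 26 reads. In the opposite direction, Celf6, an RNA-binding protein, had 25 reads in WT1, 36 in WT3 and 0 in every SOX4KO line. Rab6b and Celf6 were named after their values were seen.

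Tfap2a, by contrast, was read in every line and was lower in SOX4KO lines. WT1 had 248 reads and WT3 372, while H7 had 148, M4 134 and H4 240. These are 64.2 and 74.1 CPM in control lines (69.1 ± 6.99, SD, n = 2) and 38.6, 48.2 and 57.5 CPM in SOX4KO lines (48.1 ± 9.43, SD, n = 3). Every SOX4KO line lay below both control lines, with H4 closest to WT1 and their counting intervals overlapping (50.4 to 65.2 CPM against 56.5 to 72.7 CPM). The log2 ratio of the means, with 1 CPM added, was -0.51. The pooled reads gave a ratio of 0.694 with a counting interval of 0.616 to 0.780, which leaves out the spread between lines. In a bulk sample, fewer cells of a type and less RNA per cell cannot be told apart. The antisense gene Gm26688 had 4 or 5 reads in each line, and whether the counting used strand is not given in the sources used here, so reads of Tfap2a and of this neighbour cannot be fully separated.

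Tfap2c was the most abundant of the family in every line and showed no common direction. WT1 had 516 reads and WT3 873, while H7 had 777, M4 346 and H4 630. The control lines held 134 and 174 CPM (154 ± 28.5, SD, n = 2) and the SOX4KO lines 203, 125 and 151 CPM (159 ± 39.8, SD, n = 3). H7 was the highest line and M4 the lowest, both SOX4KO, and the control lines lay between them. The log2 ratio of 0.05 was smaller than the spread between lines, and its sign turned when WT1 was left out (-0.12), when H7 was left out (-0.16) and when levels were scaled to the library total (-0.10). Tfap2d and Tfap2e had 0 reads in all 5 lines, which allows up to 0.598 to 1.08 CPM per line.

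**Figure D1:**
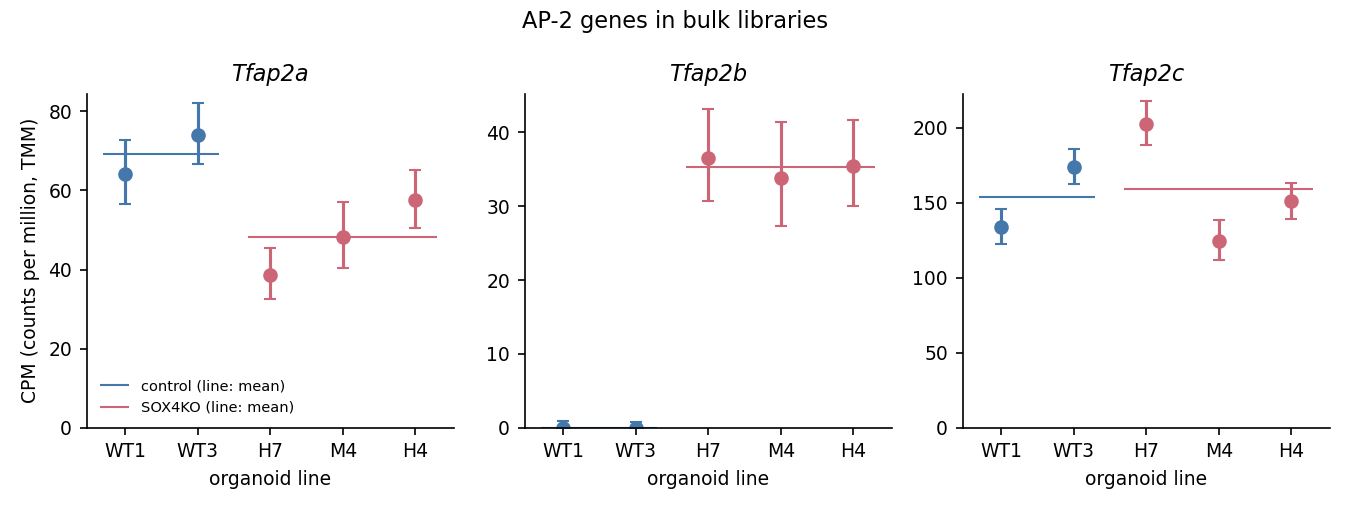
Levels of Tfap2a, Tfap2b and Tfap2c in each bulk line in CPM, with exact 95% Poisson intervals as bars and group means as horizontal lines (control in blue, SOX4KO in red); each panel has its own axis from 0. Tfap2b is at 0 in WT1 and WT3 and between 33.8 and 36.5 CPM in the SOX4KO lines, Tfap2a is lower in all 3 SOX4KO lines, and the Tfap2c groups overlap.

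To compare the 3 genes with each other, levels were divided by the length of their merged exons in GENCODE M21 (4.903 kb for Tfap2a, 6.338 kb for Tfap2b and 3.679 kb for Tfap2c). On this scale Tfap2c led in every line with 33.9 to 55.1 CPM per kb, followed by Tfap2a with 7.88 to 15.1 CPM per kb. Tfap2b came last in each SOX4KO line with 5.34 to 5.76 CPM per kb. In H7 the levels of Tfap2a and Tfap2b were closest, at 7.88 and 5.76 CPM per kb.

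The summed AP-2 level per length was 49.4 and 62.4 CPM per kb in control lines and 68.8, 49.0 and 58.3 CPM per kb in H7, M4 and H4, so the groups overlapped. What differed was the make-up of this sum. Tfap2c made up 73.5% of it in WT1 and 75.8% in WT3, and 80.2%, 69.0% and 70.3% in H7, M4 and H4. Tfap2a made up 26.5% in WT1 and 24.2% in WT3, and 11.5%, 20.1% and 20.1% in H7, M4 and H4. Tfap2b took 8.38%, 10.9% and 9.59% in the SOX4KO lines. The merged exons include every annotated isoform, and the isoforms used in these cells were not examined.

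**Figure D2:**
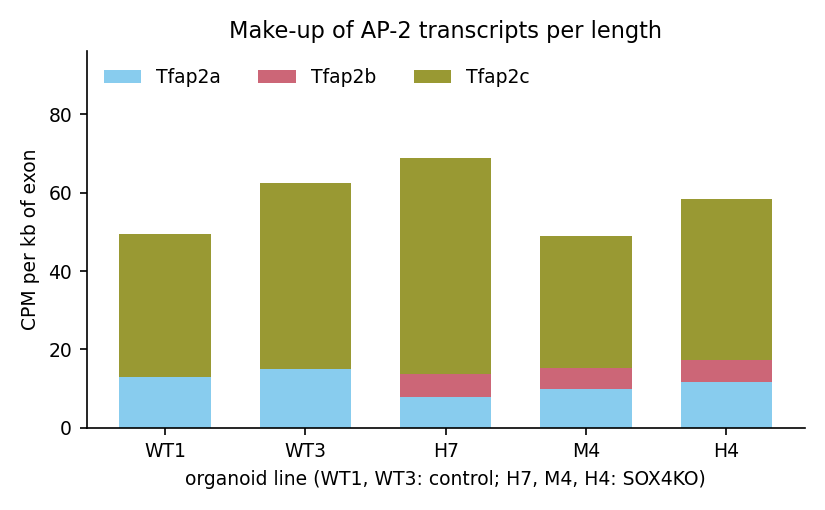
Stacked levels of Tfap2a, Tfap2b and Tfap2c in each bulk line, in CPM per kb of merged exon. The total spans 49.0 to 68.8 in the SOX4KO lines and 49.4 to 62.4 in the control lines, and the Tfap2b segment is present only in H7, M4 and H4.

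The bulk differences can be read against all genes. Of 11682 genes tested, 19.0% had every SOX4KO line above both control lines, as Tfap2b did, and 17.9% had every SOX4KO line below both, as Tfap2a did. The position of Tfap2a below the control lines is thus a common one in this comparison. By edgeR's quasi-likelihood test at an adjusted p under 0.1, 6.27% of genes were called, 4.10% higher and 2.17% lower in SOX4KO lines. Other markers moved in the same comparison. The summed level of 15 basal markers was 2398 and 1521 CPM in control lines and 5802, 7908 and 3106 CPM in H7, M4 and H4, with 5 of 11 tested markers higher. Of these sums, Sparc alone gave 1302 and 732 CPM in WT1 and WT3 and 3763, 5342 and 1692 CPM in H7, M4 and H4. Of the tested S phase and G2M phase markers, 6 of 15 and 9 of 15 were lower, the summed S phase level falling from 621 and 711 CPM in control lines to 297 to 457 CPM in SOX4KO lines. Of 16 luminal markers tested, 1 was higher and 1 lower, with a median log2 difference of -0.40 and 6 of 16 above 0. The summed level of the luminal markers was highest in H4, at 10850 CPM against 5463 to 5881 CPM in the other lines. Of the sum in H4, Lcn2 gave 5891 CPM and Csn3 2287 CPM. The part of these shifts in the AP-2 levels was not tested.

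Of 17 genes whose products bind or modify AP-2 proteins, 16 were tested, 0 were called higher and 1 lower, or 6.25%, near the 6.27% of all genes and so no result about these partners. At an unadjusted p under 0.05 there were 2, and DESeq2 also called 1. The median log2 difference was -0.17, with 4 of 16 above 0, against a median of 0.01 over all genes. The gene called lower was Cited1, a coactivator that links AP-2 to the p300 and CBP acetyltransferases. It held 32.6 and 41.8 CPM in control lines and 11.7, 20.9 and 9.34 CPM in H7, M4 and H4, a log2 difference of -1.44 ± 0.33 (SE) with an adjusted p of 0.0565. All 3 SOX4KO lines were below the control lines, as for 17.9% of all genes tested. Without WT1, WT3 or H7 in turn, this call was lost, with an adjusted p of up to 0.472. Among the partners not called, Npm1, a nucleolar chaperone, had a log2 difference of -0.14 ± 0.21 (SE). The other coactivators of this family, Cited4 and Cited2, had differences of 0.32 ± 0.22 and -0.03 ± 0.26 (SE).

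Genes described as AP-2 targets in epithelial cells were mostly not called. Of 20 such genes 19 were tested, 2 were called higher and 0 lower (10.5%, against 6.27% of all genes), with a median log2 difference of -0.01. At an unadjusted p under 0.05 there were 6, and DESeq2 called 5. Esr1, the estrogen receptor, held 8.80 and 7.57 CPM in control lines and 33.4, 17.6 and 25.1 CPM in SOX4KO lines, a log2 difference of 1.64 ± 0.32 (SE) and an adjusted p of 0.0390. Ccnd1, the cyclin D1 gene of G1 progression, held 537 and 468 CPM in control lines and 1039, 943 and 1300.4 CPM in SOX4KO lines, a log2 difference of 1.12 ± 0.22 (SE) and an adjusted p of 0.0377. Neither gene's groups overlapped, and 19.0% of all genes tested likewise had every SOX4KO line above both control lines. Both calls were lost without WT1 or without WT3, with adjusted p-values of up to 0.371 and 0.424. Igfbp5, a secreted binding protein for insulin-like growth factors, had by far the highest level, with a log2 difference of 0.11 ± 0.25 (SE). Cd44, a hyaluronan receptor, and Cdh1, which encodes E-cadherin, had -0.22 ± 0.19 and -0.32 ± 0.23 (SE). None of these 3 was called.

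Of 30 other transcription factors of the mammary epithelium 28 were tested, and 6 were called. This is 21.4% beside the 6.27% of all genes, a difference that was not tested. The list, like those of partners and targets, was chosen with earlier results of these data known, so its share cannot be read as an excess. The count was 0 without WT1 and 1 without WT3. Esr1, counted above, and Snai2, a zinc finger repressor of basal cells, were higher, the latter with 24.3 and 18.3 CPM in control lines and 58.2, 57.2 and 36.6 CPM in SOX4KO lines (log2 difference 1.25 ± 0.27, SE; adjusted p = 0.0491). Bcl11b fell most, a zinc finger factor of mammary stem cells, from 20.2 and 11.2 CPM to 1.83, 1.44 and 1.68 CPM (log2 difference -3.20 ± 0.41, SE; adjusted p = 0.0125). Ehf, an ETS factor of epithelia, fell from 777 and 692 CPM to 268, 339 and 270 CPM (log2 difference -1.33 ± 0.19, SE; adjusted p = 0.0146).

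Grhl1, a grainyhead factor of epithelial barriers, and Hey1, a Notch target, also fell, by 0.95 ± 0.17 and 0.70 ± 0.19 on the log2 scale (SE), with adjusted p-values of 0.0298 and 0.0973. Leaving out WT1 ended all 6 calls, and leaving out WT3 ended all but that of Bcl11b; Hey1 was also lost without H7. The most abundant factors not called were Nfib, Sox9 and Id2, with log2 differences of -0.06 ± 0.18, 0.01 ± 0.18 and -0.54 ± 0.18 (SE). For Sox4 the log2 difference was -0.57 ± 0.25 (SE), with an adjusted p of 0.277.

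Over the 5 bulk lines, the genes most like each AP-2 gene were found by the root mean square difference of their log2 CPM after centring each gene. For Tfap2b they were Serpinf1, A2m, Rab6b, Wfdc13 and Csn1s1, with differences of 0.432 to 1.03 against a median of 3.02 over the tested genes. Serpinf1, which encodes a secreted serpin, had 42 and 47 reads in control lines and 2296, 1288 and 1420 in SOX4KO lines. A2m, a protease inhibitor, had 6 and 0 reads and then 251, 104 and 89. Csn1s1, a milk casein, had 7 and 5 reads and then 172, 63 and 145. All 3 were lower in both control lines than in any SOX4KO line, which follows from their choice by likeness to Tfap2b over these same lines. Serpinf1, unlike Tfap2b, was counted in both control lines.

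For Tfap2a the nearest genes were Cyp20a1, Atp6v1b1, March8, Wdr41 and Slc37a1, with differences of 0.0279 to 0.0521 (median 0.408). For Tfap2c they were 4930522L14Rik, Cmtr1, Zfp654, Ttf1 and B3gntl1, with differences of 0.0342 to 0.0676 (median 0.375). With 5 lines and 11682 genes, small differences of this kind are many, and nothing is read from these names. Tfap2a and Tfap2c differed from each other by 0.464, so the 2 genes expressed in all lines did not vary in step.

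The single-cell libraries gave the same division between the groups for Tfap2b. The deposited table of GR17 has no row for Tfap2b, while those of GR18 and GR19 have 1 row each. Of the genes listed for each library, 0 were without a UMI, so a gene not listed was taken as 0 UMIs, and the values of Tfap2b in GR17 rest on this reading. On it, GR17 held 0 UMIs in 369 control cells, GR18 held 543 UMIs in 369 SOX4KO cells and GR19 held 559 UMIs in 362 SOX4KO cells. These are 67.8 CPM (62.2 to 73.7) and 67.4 CPM (61.9 to 73.2) in the SOX4KO libraries, with exact 95% Poisson intervals. With a floor of 3 UMIs in GR17, or 0.389 CPM, Tfap2b was at least 174-fold higher in GR18 and at least 173-fold higher in GR19. GR19 stood at 0.994 of GR18, with an interval of 0.881 to 1.12. With 1 control library there is no test, and these intervals, like all intervals on counts here, cover counting error only.

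At the level of cells, 241 of 369 GR18 cells had a UMI of Tfap2b, or 65.3% (60.2% to 70.2%, Clopper-Pearson, 95%), and 230 of 362 GR19 cells, or 63.5% (58.3% to 68.5%). In GR17 it was 0 of 369 cells, which allows a share of cells with a UMI of up to 0.813% by the floor of 3 counts and 0.995% by the exact interval. This limits cells with a UMI, not cells that express the gene at a low level. The control cells had a median of 19845 UMIs per cell, against 20525 and 21877 in GR18 and GR19, so the median depths differed little. Other marker sums moved with the groups as well. Luminal markers summed to 4521 CPM in GR17 and to 8013 and 10040 CPM in GR18 and GR19, and S phase markers to 2733, 2108 and 2158 CPM and G2M phase markers to 2132, 1638 and 1667 CPM. Single luminal markers did not all follow their sum. Krt8 rose, with 581, 709 and 884 CPM in GR17, GR18 and GR19, while Epcam was lower in both SOX4KO libraries, with 352, 263 and 253 CPM. Krt18 lay on either side of the control, with 281, 228 and 312 CPM. Basal markers in sum did not follow the groups, with 5154, 5466 and 3151 CPM, where in bulk their sum was higher in every SOX4KO line. In bulk, 10 of 11 tested basal markers had a log2 difference above 0, but not each was higher in every SOX4KO line. Krt14 was at 235 and 240 CPM in WT1 and WT3 and at 107, 601 and 187 CPM in H7, M4 and H4. The part of these shifts in the Tfap2b level was not tested. The wells with under 1000 UMIs, left out of all values, held 0, 1 and 1 UMIs of Tfap2b. The 3 libraries shared all 384 well names, which mark plate positions, and in 0 wells were the counts of 2 libraries identical.

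Of 15150 genes, 1659 had no UMI in the kept GR17 cells. Of these, only Tfap2b, chosen with this contrast known, and Clca2 had at least 10 CPM in both SOX4KO libraries. In the reverse direction there were 0 genes. Clca2, a membrane protein of epithelia that regulates chloride conductance and that was named after its values were seen, had 244 and 785 UMIs. Of 6303 genes with at least 20 CPM on average, 1.92% were at least 2-fold higher in each SOX4KO library than in GR17 and 0.317% at least 2-fold lower. Tfap2b was among the former, which follows from the choice of the AP-2 genes with this contrast known. It reached 20 CPM on average only through the SOX4KO libraries. Tfap2a and Tfap2c were in neither set. The genes nearest Tfap2b in bulk were not all alike in single cells. A2m had 0, 75 and 59 UMIs and Csn1s1 386, 5519 and 5856 UMIs in GR17, GR18 and GR19, while Serpinf1 was present in the control cells with 557 UMIs beside 1840 and 1297, and Rab6b was nearly absent with 0, 10 and 2.

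Tfap2a and Tfap2c were found in most cells of all 3 libraries. Tfap2a had 680, 659 and 647 UMIs in GR17, GR18 and GR19, or 88.1, 82.3 and 78.0 CPM. The exact Poisson intervals overlapped, from 81.7 CPM upward in GR17, 76.1 to 88.8 CPM in GR18 and 72.1 to 84.2 CPM in GR19. GR18 stood at 0.933 of the control (0.837 to 1.04) and GR19 at 0.885 (0.793 to 0.987). The direction was that of the bulk lines, with a smaller log2 ratio of -0.14 in place of -0.51. A UMI of Tfap2a was seen in 77.2%, 77.8% and 77.1% of cells, shares that lie within each other's intervals (72.4% to 81.9% over the libraries).

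Tfap2c had 1207, 1322 and 1178 UMIs, or 156 CPM (148 to 166) in GR17, 165 CPM (156 to 174) in GR18 and 142 CPM (134 to 150) in GR19. The 2 SOX4KO libraries lay on either side of the control, at 1.05 times (0.975 to 1.14) and 0.907 times (0.837 to 0.984). They differed more from each other, GR19 at 0.860 of GR18 (0.795 to 0.931), than either did from the control. A UMI was seen in 84.3%, 82.4% and 87.3% of cells. Tfap2d had 0 UMIs in all libraries and Tfap2e 1 UMI, in GR18. A count of 0 in 362 or 369 cells allows a share of cells with a UMI of up to 0.829% or 0.813%.

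**Figure D3:**
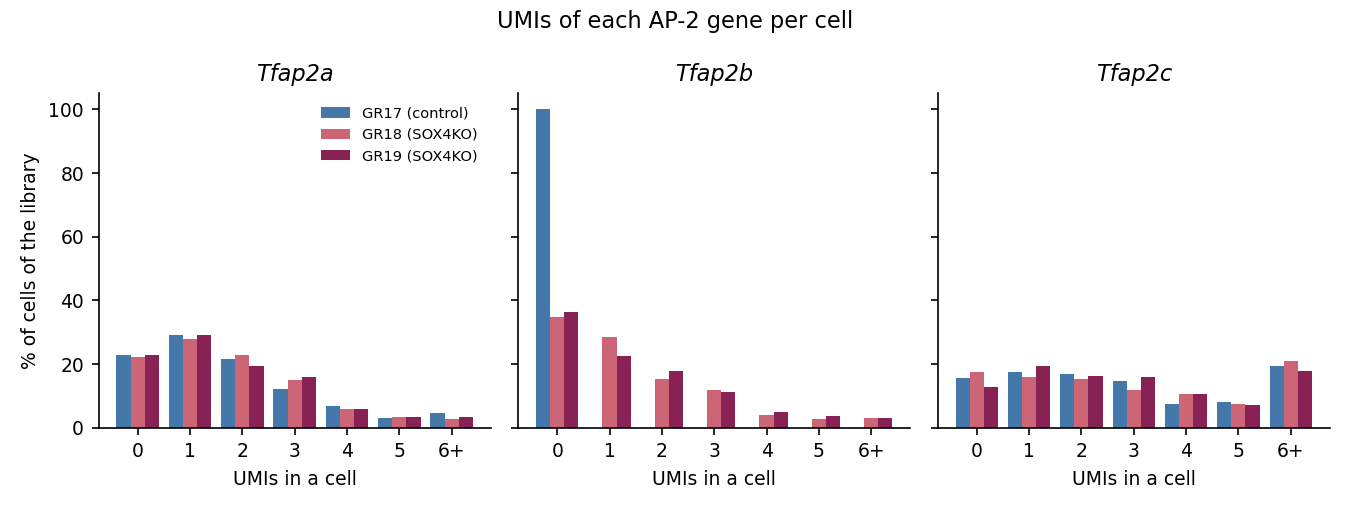
Share of cells (in %) of GR17, GR18 and GR19 by the number of UMIs they held of Tfap2a, Tfap2b and Tfap2c, with 6 or more in the last bin. All GR17 cells are at 0 for Tfap2b, while in GR18 and GR19 34.7% and 36.5% of cells are at 0, and the 3 libraries run close together for Tfap2a and Tfap2c.

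Whether the cells without a UMI differ from those with one was described by the spread of the counts. Cells were thinned to 10000 UMIs each, which left 334, 330 and 342 cells. At this depth Tfap2b was seen in 48.2% of GR18 cells and 43.9% of GR19 cells, and random draws from a constant level (a Poisson distribution with the same mean) would give 52.0% and 50.3%. The variance was 1.23 and 1.33 times the mean in these libraries, where a constant level gives 1. Tfap2a was the most even of the 3, with at most 1.17 times in the 3 libraries, and shares of 55.7%, 53.9% and 51.7% against 57.3%, 56.7% and 53.8%. Tfap2c was the least even, with 1.58, 1.75 and 1.49 times, and shares of 71.0%, 70.0% and 67.5% against 79.4%, 80.1% and 75.5%.

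The 3 genes were found together in many SOX4KO cells. A UMI of each was present in 164 of 369 GR18 cells (44.4%) and in 168 of 362 GR19 cells (46.4%), where independent detection would give 41.8% and 42.7%. No AP-2 gene was seen in 19 GR17 cells (5.15%), 9 GR18 cells (2.44%) and 13 GR19 cells (3.59%). Tfap2b without either of the others was seen in 8 and 5 cells of GR18 and GR19.

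Pair by pair, co-detection was close to what independent detection gives. Tfap2a and Tfap2b were found together in 192 GR18 cells and 183 GR19 cells, 1.02 and 1.03 times the expected share. Tfap2b and Tfap2c were found together in 205 and 210 cells, 1.03 and 1.05 times the expected share. For Tfap2a and Tfap2c the ratio was 1.02, 1.01 and 1.03 in GR17, GR18 and GR19, from 246, 239 and 251 cells. Every interval included 1. Deeper cells show more of every gene, and the median ratio of an AP-2 gene with all genes seen in at least 10% of cells was 1.03 to 1.06. After thinning, these medians were at most 1.01 and the AP-2 pairs stood at 0.979 to 1.04.

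A stricter count moved the pairs unequally. With at least 2 UMIs of each gene, the ratio for Tfap2a and Tfap2b in GR18 was 1.14 and for Tfap2b and Tfap2c in GR18 1.15, outside the intervals at 1 UMI, and in GR19 it was 1.08 and 1.12. For Tfap2a and Tfap2c it was 1.08, 1.01 and 1.04 in GR17, GR18 and GR19. That count was not thinned, so cell depth enters it. Over cells, Pearson's r of log-normalized values for the 3 pairs lay between -0.01 and 0.06 in all libraries (362 to 369 cells each), where the cells of a library share their plate and differ in depth.

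**Figure D4:**
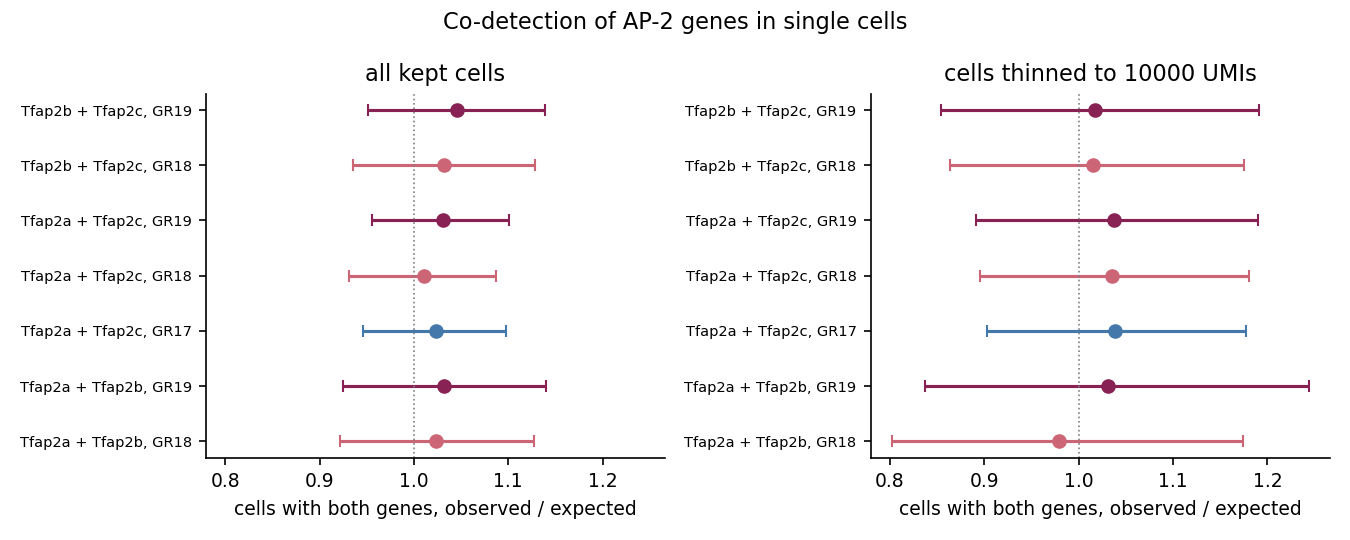
Observed share of cells with UMIs of both genes of a pair over the product of the separate shares, per pair and library, in all kept cells (left) and in cells thinned to 10000 UMIs (right); bars are exact 95% binomial intervals of the observed share with the expected share held fixed, and the dotted line marks 1. The points lie between 0.979 and 1.05 and every bar crosses 1.

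The cells were grouped into 7 clusters, A to G, with the AP-2 genes kept out of the genes used. The clusters are called by letter. D and E were rich in luminal markers, with 12390 and 17610 CPM summed over the 20 luminal genes and 1158 and 1118 CPM over the 15 basal genes. Itgam, an integrin of myeloid cells on the immune list, was the second leading gene of D by fold, at 20.3 CPM. A and B were rich in basal markers, at 6515 and 8368 CPM. Clusters A and F were mostly control cells, with 206 and 102 of their 210 and 117 cells from GR17, and clusters C and G held 0 cells from GR17. Libraries and clusters are thus partly the same division. D, with 38, 45 and 75 cells of GR17, GR18 and GR19, and E, with 14, 63 and 54, were mixed.

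Tfap2b was present in every cluster of SOX4KO cells. Over B, C, D, E and G it ranged from 58.8 CPM in E to 74.0 CPM in B in GR18, and from 51.6 CPM in D to 78.7 CPM in C in GR19. The exact Poisson intervals of D (42.6 to 62.0 CPM) and C (66.5 to 92.4 CPM) in GR19 did not overlap, while in GR18 D stood above C, at 71.9 CPM, with overlapping intervals (58.6 to 87.4 and 54.8 to 76.6 CPM). Taking the SOX4KO cells of both libraries together, the highest of these clusters stood at 1.22 times the lowest. Neither luminal-rich nor basal-rich SOX4KO cells were without it, and it was seen in 73.3% and 64.0% of the SOX4KO cells of D. In the same mixed clusters, the GR17 cells had 0 UMIs, 0 of 38 cells in D and 0 of 14 in E, and so did the 9 GR17 cells of B. The few SOX4KO cells that fell in A and F, the clusters of control cells, held 4 UMIs in 4 cells of A and 7 UMIs in 15 cells of F.

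Tfap2c varied most between clusters, by 1.98 times from the lowest to the highest over the cells of all libraries. In the SOX4KO libraries it was lower in the luminal-rich clusters D and E than in B, C and G. A low level was not particular to D and E. Over the cells of all libraries, F was at 110 CPM, below E at 119 CPM. In GR18 it was at 86.1 CPM (71.5 to 103) in D and 131 CPM (112 to 153) in E, against 167 to 220 CPM in B, C and G. In GR19 it was at 107 and 110 CPM in D and E against 152 to 178 CPM in B, C and G. In GR17 it was at 102 CPM (83.7 to 124) in D and 183 CPM (171 to 195) in A. F, at 119 CPM (103 to 137), overlapped D there, and the 9 GR17 cells of B were at 115.5 CPM (55.4 to 212). Tfap2a varied less over the cells of all libraries, from 67.7 CPM in C to 91.5 CPM in B. It was at 79.7 and 81.3 CPM in D and E. In E the SOX4KO libraries differed for Tfap2a, with 97.9 CPM (81.2 to 117) in GR18 and 65.1 CPM (52.0 to 80.5) in GR19.

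**Figure D5:**
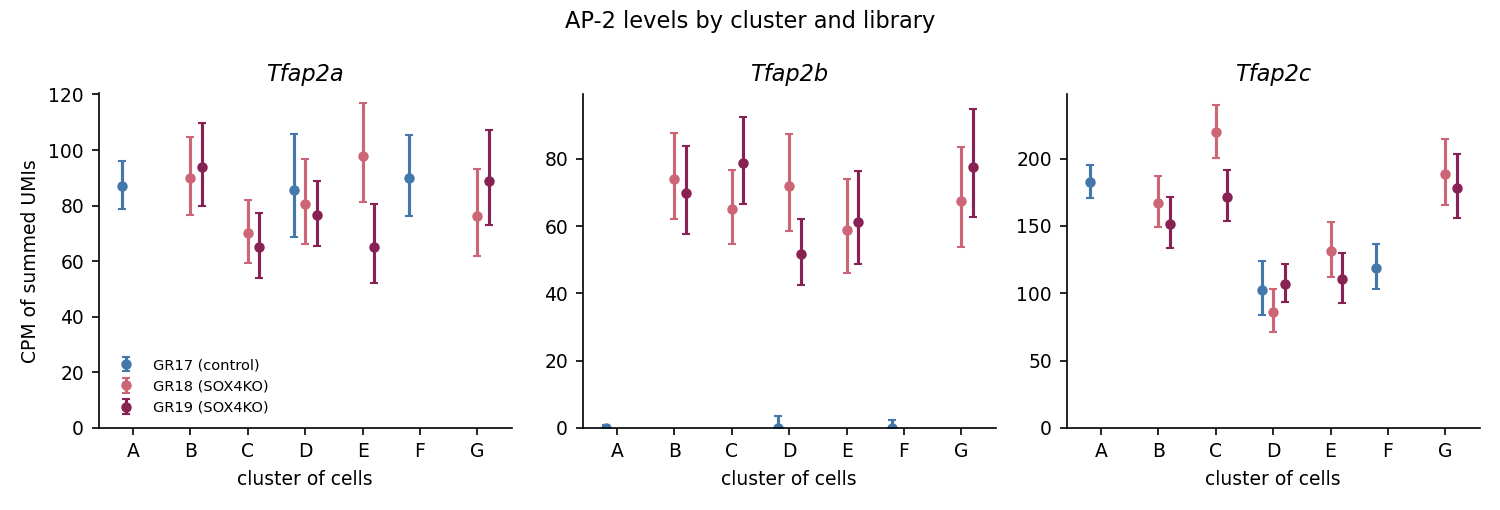
Levels of Tfap2a, Tfap2b and Tfap2c in CPM of summed UMIs by cluster and library, for combinations of at least 30 cells, with exact 95% Poisson intervals. Tfap2b is at 0 in the GR17 cells of every cluster and between 51.6 and 78.7 CPM in the SOX4KO cells. Tfap2c is lower in D and E than in A, B, C and G, and F, shown for GR17 only, is at 119 CPM.

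The genes that followed each AP-2 gene most closely over cells were found by the mean of Pearson's r within libraries, among genes seen in at least 10% of the cells of every library. For Tfap2c they were Itgb4 (mean r 0.295), Pi15, Lima1, Chsy1 and Snai2 (at most 0.257), over a range of -0.226 to 0.295 for 8835 genes. Itgb4, the β4 integrin of hemidesmosomes, had an r of at least 0.286 in each library, and Snai2, the basal factor named above, 0.242 to 0.264. For Tfap2a they were Sox9, Wbp2, Car12, Hes1 and Inhbb, with mean r of 0.148 to 0.186, and for Tfap2b Cd44, Foxp1, Zfp236, Pabpn1 and Gpr125, with 0.153 to 0.191 over GR18 and GR19. The other AP-2 genes were not among them. The cells share library and depth, the counts are sparse and these values are weak, so they are given as a description.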

How the data were processed

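RNA of 5 bulk organoid lines and of single cells in 3 plates was analysed. For bulk the authors deposited HTSeq read counts and for single cells UMI counts per well, neither of them normalized. Per the labels' processing notes, STAR 2.4.2a, Picard, HTSeq, R 3.6.1, edgeR, DESeq and Seurat and the build NCBIM37/mm9 were used; the study used Seurat for the single cells, and the roles of the other tools are not given in the sources used here. Rows of HTSeq tallies, 71.6% to 83.9% of all counts, stayed out of library sizes. Symbols and exon lengths came from GENCODE M21, so lengths may differ from the authors' annotation.

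Bulk counts were fitted with edgeR 4.0.16 (filterByExpr, TMM, glmQLFit, glmQLFTest, Benjamini-Hochberg, called under 0.1) in R 4.3.3. SE was the absolute log2 difference over the square root of F. The fit covered all genes that passed the filter, Tfap2a, Tfap2b and Tfap2c among them, and the counts over all genes include them. No call of an AP-2 gene is reported. Wells with at least 1000 UMIs were kept, without ERCC spike-ins, and a gene not listed in a library was taken as 0. Doublets were not called; 8, 20 and 11 wells had over 2 times the median UMIs. Clusters used Seurat 5.3.0 (2000 variable genes, 10 principal components, 20 neighbours, resolution 0.5). Proteins of the AP-2 family were not analysed here. The edgeR and DESeq2 fits, the thinning and the co-detection ratio were tested on simulated data, and the other steps were not.

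Members and gene lists (partners, targets, lineage factors, markers) were chosen with earlier results of these data known. Named genes were the AP-2 family, Sox4, called members of the 3 lists, up to 3 uncalled members of highest level, and the 5 genes most like each AP-2 gene over lines and over cells. Alternatives were DESeq2 1.42.0, its size factors, other filters, thresholds, pseudocounts and UMI minimums, thinning, other clusterings, and leaving out each line or library.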

Additional observations from a re-analysis of the deposited data

How the results depend on the processing

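No paired analysis was possible because the labels name the lines without replicate numbers, so no line of a group is tied to a line of the other (numbers given in order of deposit only name them). The bulk calls rested on both control lines. Leaving out each line in turn gave 30 to 624 genes called higher and 26 to 382 called lower (without WT1 93 and 37, without WT3 30 and 26), against 479 and 254 with all lines. For the AP-2 partners this gave 0 to 1 calls, for the AP-2 targets 0 to 6 and for the lineage factors 0 to 9. With no filter beyond 1 count, there were 1008 and 678 calls, 6 targets and 12 lineage factors. At an adjusted p under 0.05, 241 and 113 genes and 0 partners were called. DESeq2 called 5 targets.

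The log2 ratio of Tfap2a stayed negative in every alternative, between -0.67 and -0.38 in bulk and -0.17 and -0.08 in single cells. The bound for Tfap2b in bulk was 6.71 on the log2 scale, 6.55 when scaled to the library total and 5.51 to 6.74 when a line was left out (5.88 without WT1, 5.51 without WT3, where the floor of 3 reads rests on 1 library). Its single-cell bound was 7.44, 6.32 after thinning (fewer counts against the same floor of 3) and 7.44 to 7.45 when a SOX4KO library was left out. No pseudocount alternative was run for these bounds, which use none. The Tfap2c ratio ranged from -0.16 to 0.25 over left-out lines, and in single cells from -0.14 to 0.08. With at least 2 UMIs of each gene, co-detection in GR18 was 1.14 for Tfap2a and Tfap2b and 1.15 for Tfap2b and Tfap2c; the cause was not tested. The highest over the lowest cluster stayed between 1.26 and 1.38 for Tfap2a, 1.19 and 1.24 for Tfap2b and 1.78 and 2.02 for Tfap2c under other clusterings. The control library GR17 could not be left out. Bulk depth limits Tfap2b to about 94 to 148 reads per SOX4KO line.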
